A study of Mus musculus with 6 samples.

Results

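The transcripts of 10 genes for enzymes and transporters of arginine, nitric oxide and itaconate metabolism were examined in mouse bone marrow derived macrophages (BMDMs) after 1 h of bacterial lipopolysaccharide (LPS). The genes were Acod1, Nos2, Gch1, Arg1, Arg2, Odc1, Slc7a1, Slc7a2, Ass1 and Asl. Each was taken as the row of the deposited gene count table whose Ensembl identifier carries that name in GENCODE release M21, and all 10 were found among 55335 rows. The rule that finds them uses gene names and no measured value, although the genes were proposed with earlier results of these data known. Total RNA was sequenced in 6 libraries of BMDMs from C57BL/6 mice, a wild-type inbred strain, with no transgene, deletion or age named in the labels. The marrow had been grown for several days in medium conditioned by L929 cells, a fibroblast line whose medium supplies macrophage growth factor. Cells of the control group received PBS and those of the LPS group received LPS, both for 1 h, with 3 libraries in each group. The LPS dose was not given in the sources used here. The labels do not say whether replicates came from separate mice, so p-values measure only the spread between these libraries, which may be technical.

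Macrophages bring in arginine through cationic amino acid transporters, among them the products of Slc7a1 and Slc7a2. Inducible nitric oxide synthase, the product of Nos2, turns arginine into nitric oxide and citrulline with tetrahydrobiopterin as a cofactor, and Gch1 encodes the first enzyme of tetrahydrobiopterin synthesis. Argininosuccinate synthase (Ass1) and argininosuccinate lyase (Asl) convert citrulline back to arginine. The arginases, cytosolic Arg1 and mitochondrial Arg2, split arginine into urea and ornithine, and Odc1 encodes ornithine decarboxylase, which commits ornithine to polyamine synthesis. Acod1 encodes the mitochondrial enzyme that makes itaconate from cis-aconitate, an intermediate of the citrate cycle. Nos2 is a textbook marker of macrophages activated by LPS, and Arg1 one of macrophages exposed to interleukin 4.

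Library totals lay between 37787611 and 41516330 counts. Values below are counts, or normalized CPM, the usual scaling of counts to the library total, with that total first multiplied by the TMM factor of edgeR. These factors were 1.15 in each control library and 0.864 to 0.872 in LPS libraries, so the scaling enters every fold change, and scaling by library size alone moved the median log2 fold change of all tested genes by -0.40. All 8 macrophage markers were abundant, with a summed level of 30328 to 31607 CPM in control and 33060 to 33370 CPM in LPS libraries. Markers of other cells were low. The 6 neutrophil markers summed to at most 35.8 CPM in control and 46.2 CPM in LPS libraries, and Ly6g, the most specific of them, had at most 3 counts in any library. The 4 T cell markers summed to at most 0.575 CPM, the 4 B cell markers to at most 3.40 CPM, the 3 fibroblast markers to at most 9.80 CPM, the 2 mast cell or basophil markers to at most 1.65 CPM and the 3 erythroid markers to at most 0.298 CPM. The 3 dendritic cell markers, Flt3, Zbtb46 and Xcr1, all rose, from a summed 1.20 to 1.45 CPM to 4.93 to 6.17 CPM. Their part in the results below was not tested. In such bulk libraries fewer cells of a type and less RNA per cell cannot be told apart.

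After 1 h of LPS, 7 of the 10 genes had risen. The criteria were a log2 fold change (log2FC) of LPS over control above 1 and p below 0.05 in the quasi-likelihood test of edgeR, after Benjamini-Hochberg adjustment across 15687 tested genes, and SE below is the standard error of that log2FC. The 7 were Acod1, Odc1, Arg2, Nos2, Slc7a2, Gch1 and Slc7a1, and none of the 10 fell. Among all tested genes, 10.5% rose and 10.4% fell by the same criteria, and 67.7% had an adjusted p under 0.05 in either direction. Of the other 3 genes, Ass1 rose by less than 1 on the log2 scale, Asl did not pass the test, and Arg1 had too few counts to enter it. Over the 9 of the 10 genes that were tested, the median log2FC was 3.09, against -0.01 for all genes. In each of the 7 genes that rose, the lowest LPS library lay above the highest control library. How many of all tested genes were separate in this way was not counted, so this describes the 7 genes only.

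**Figure D1:**
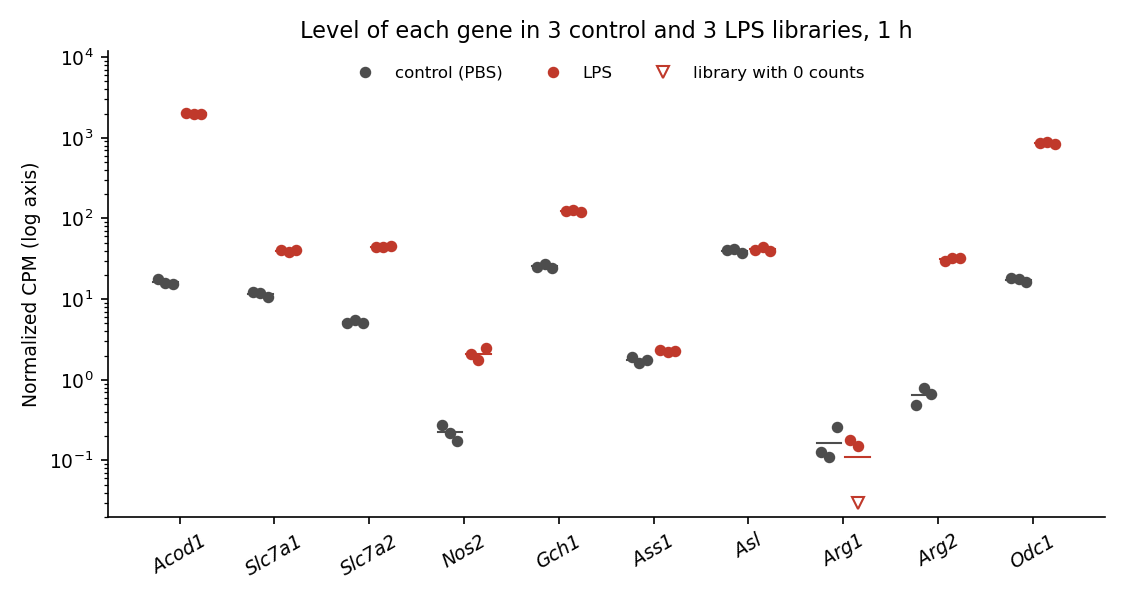
Normalized CPM (log axis) of each of the 10 genes in the 3 control libraries (grey) and the 3 LPS libraries (red), with a short line at each group mean. With TMM scaling the groups overlap for Arg1 and Asl and are separate for the other genes, among them Ass1, whose small difference depended on the scaling. How many of all tested genes were separate in this way was not counted. The open triangle at the foot of the axis marks the LPS library with 0 counts of Arg1.

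RefSeq start sites on GRCm38.p6 were at hand for 5 of the 10 genes, Acod1, Odc1, Gch1, Slc7a1 and Ass1. The sequences upstream are shown for the 4 of these that rose past the criteria, so that their composition can be set beside their response. They are written 5′ to 3′ on the strand of the gene, and end where either RefSeq or GENCODE M21 begins the transcript. Capitals mark a match to 1 of 7 motifs searched on both strands. The intervals are chr14:103046762-103046976 on the plus strand for Acod1, chr12:17544623-17544793 on the plus strand for Odc1, chr14:47189414-47189663 on the minus strand for Gch1 and chr5:148399905-148400154 on the minus strand for the outer start of Slc7a1.
Acod1: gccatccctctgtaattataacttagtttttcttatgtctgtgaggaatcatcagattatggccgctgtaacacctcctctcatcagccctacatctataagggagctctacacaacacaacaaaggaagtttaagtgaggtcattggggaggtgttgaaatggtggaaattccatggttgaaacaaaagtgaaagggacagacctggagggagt
Odc1: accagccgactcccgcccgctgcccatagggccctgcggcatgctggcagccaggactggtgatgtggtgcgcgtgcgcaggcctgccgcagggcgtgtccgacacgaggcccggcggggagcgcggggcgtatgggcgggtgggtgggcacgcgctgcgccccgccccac
Gch1: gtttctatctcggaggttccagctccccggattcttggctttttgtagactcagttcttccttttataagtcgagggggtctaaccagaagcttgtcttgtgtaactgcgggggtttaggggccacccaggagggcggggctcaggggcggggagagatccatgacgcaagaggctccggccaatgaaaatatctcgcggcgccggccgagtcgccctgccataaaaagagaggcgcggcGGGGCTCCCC
Slc7a1: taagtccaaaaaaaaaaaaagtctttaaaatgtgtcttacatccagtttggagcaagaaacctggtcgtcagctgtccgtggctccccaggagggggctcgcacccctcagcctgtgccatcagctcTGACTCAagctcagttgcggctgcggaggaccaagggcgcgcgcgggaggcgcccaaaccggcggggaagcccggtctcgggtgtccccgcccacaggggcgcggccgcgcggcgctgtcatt

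The motifs were the kB site in its usual degenerate form, C/EBP (TTGCNNAA), AP-1 (TGANTCA), the ISRE core (GAAANNGAA), GAS (TTCNNNGAA), the E-box (CACGTG) and CRE (TGACGTCA). They were searched in the 250 bases before each RefSeq start. In Gch1, a kB match lay at positions -10 to -1 before the start, and 3.90% of all 32851 promoters held such a match. The outer start of Slc7a1 had an AP-1 match TGACTCA at positions -123 to -117, a motif held by 6.75% of promoters, and its inner start had a GAS match TTCAAAGAA at -146 to -138, held by 7.02%. The window of Ass1 had an E-box at -36 to -31, held by 6.02%. GENCODE M21 begins Ass1 farther upstream than RefSeq does, so this match lay inside the gene as annotated there. The windows of Acod1 and Odc1 held no match to any of the 7, which says only that these letters are not there. Over the whole 250 bases the windows also differed in composition, with 44.4% G or C in Acod1, 80.0% in Odc1, 59.2% in Gch1 and 62.4% in Slc7a1, against a median of 52.4% over all promoters. C/EBP, the ISRE core and CRE, held by 9.56%, 7.13% and 1.55% of promoters, matched in none of the 5 genes.

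Acod1, the gene of the itaconate-producing enzyme, had the largest change of the 10 genes. Its counts were 840, 724 and 713 under PBS and 68476, 65317 and 67530 under LPS. Every PBS library was low but well above detection, and the LPS libraries lay close together far above them. The normalized level was 16.4 ± 1.13 CPM under PBS and 2009 ± 28.9 CPM under LPS (± SD, n = 3 per group). This was a 123-fold rise with a 95% interval of 114 to 132 (log2FC 6.94, SE 0.05, edgeR adjusted p = 4.99e-24). It was the 85th highest log2 fold change of the 15687 tested genes. Acod1 transcripts made up 0.00188% of all counts in control and 0.174% in LPS libraries. The gene (ENSMUSG00000022126.6) spans 9.60 kb of chromosome 14 in GRCm38, from 103046977 to 103056573 on the plus strand, and has 1 annotated transcript.

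On the branch from arginine to polyamines, Arg2 and Odc1 rose and Arg1 lay near the floor of detection. Arg2, the mitochondrial arginase, had 23, 36 and 31 counts under PBS and 1006, 1062 and 1102 under LPS. It was barely expressed in control cells and reached 31.6 ± 1.44 CPM (SD, n = 3) with LPS, a 48.6-fold rise (log2FC 5.60, SE 0.11, edgeR adjusted p = 1.96e-18). Odc1, the decarboxylase that acts on the ornithine made by arginase, had 877, 798 and 744 counts under PBS and 28658, 29188 and 28774 under LPS. Its level rose 49.7-fold, from 18.4, 17.7 and 16.1 CPM to 854, 894 and 845 CPM, with an SD of 26.1 CPM under LPS (log2FC 5.63, SE 0.05, edgeR adjusted p = 3.43e-23). The LPS libraries of both genes stood clear of every control library.

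Arg1, the cytosolic arginase, had 6, 5 and 12 counts under PBS and 6, 5 and 0 under LPS. The groups overlapped, and at this depth no change could be measured. In a fit without the filter on low counts, its log2 fold change was -0.60 (SE 0.61, edgeR adjusted p = 0.463). A count of 3, taken as the floor, corresponded to between 0.0630 and 0.0919 CPM in these libraries, and the mean level of Arg1 was 0.166 CPM in control and 0.111 CPM in LPS libraries. Floors cover counting error only. Per kb of exon, Arg2 exceeded Arg1 in both groups, at 0.456 against 0.0743 CPM under PBS and 22.2 against 0.0497 CPM under LPS, with no overlap of the libraries.

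Arg2 lies on chromosome 12 (79130777 to 79156301, plus strand) and ends tail to tail with Vti1b on the other strand, with 285 exonic bp in common. Vti1b was flat, at a log2FC of 0.00 (SE 0.05, edgeR adjusted p = 0.965). The antisense gene Gm48780, which shares 116 exonic bp with Arg2, had 31, 27 and 21 counts under PBS and 16, 6 and 12 under LPS. Neither row rose with Arg2. The strand setting of the counting was not given in the sources used here.

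Odc1 has many processed copies in the mouse genome. Among annotated processed pseudogenes, 12 aligned to an Odc1 transcript with at least 95% identity over at least 150 bases, and 10 of them had counts in some library. Their counts summed to 33, 33 and 28 under PBS and 828, 758 and 765 under LPS, or 3.89% and 2.71% of the counts of Odc1 itself. Gm9115 on the X chromosome went from 8, 8 and 7 counts to 389, 372 and 401, and Gm7993 on chromosome 5 from 7, 11 and 4 counts to 254, 243 and 214. Whether these reads came from the copies or from Odc1 was not tested, and how the counting treated reads with several matches was not given. With the counts of the copies added to those of Odc1, its log2 fold change was 5.61 (edgeR adjusted p = 2.40e-22), against 5.63 for Odc1 alone. AW146154, a protein-coding gene on chromosome 7 that matched Odc1 over 520 bases at 96.5% identity, had the opposite pattern, with 419, 385 and 403 counts under PBS and 97, 97 and 104 under LPS.

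On the nitric oxide route, Nos2 rose from a trace and Gch1 from a moderate level. Nos2 had 13, 10 and 8 counts under PBS and 70, 57 and 85 under LPS. The groups were separate, but Nos2 counts stayed low in every LPS library. With so few control counts, Nos2 could not be tested when 10 counts were asked of every library. Its mean level was 0.223 ± 0.0498 CPM under PBS and 2.11 ± 0.376 CPM under LPS (± SD, n = 3 per group), a 9.35-fold rise with a 95% interval of 6.68 to 13.1 (log2FC 3.23, SE 0.25, edgeR adjusted p = 2.04e-09). Its standard error was the widest among the 9 tested genes. Gch1, whose product limits the supply of the cofactor of nitric oxide synthase, had 1181, 1238 and 1134 counts under PBS and 4097, 4208 and 4101 under LPS. It rose 4.84-fold, with means of 25.6 ± 1.57 CPM under PBS and 124 ± 4.48 CPM under LPS (± SD, n = 3 per group; log2FC 2.27, SE 0.05, edgeR adjusted p = 4.35e-18).

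Both arginine transporters rose. Slc7a1, the widely expressed carrier, had 579, 535 and 492 counts under PBS and 1346, 1255 and 1386 under LPS. It rose 3.44-fold, with means of 11.6 ± 0.789 CPM under PBS and 39.8 ± 1.18 CPM under LPS (± SD, n = 3 per group; log2FC 1.78, SE 0.06, edgeR adjusted p = 4.63e-15). Slc7a2, the carrier known as inducible in macrophages, had 241, 252 and 232 counts under PBS and 1494, 1434 and 1532 under LPS. It rose 8.52-fold, with means of 5.22 ± 0.308 CPM under PBS and 44.5 ± 0.540 CPM under LPS (± SD, n = 3 per group; log2FC 3.09, SE 0.06, edgeR adjusted p = 1.71e-18). The Slc7a2 gene overlaps Gm26584, an antisense lincRNA of GENCODE M21 that shares 635 exonic bp with it. Gm26584 has no row in the deposited counts, so its level is not known.

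The enzymes that rebuild arginine from citrulline moved little. Ass1, which joins citrulline to aspartate, had 91, 73 and 81 counts under PBS and 78, 72 and 78 under LPS. After scaling, its level was 1.76 ± 0.148 CPM in control and 2.27 ± 0.0611 CPM in LPS libraries (SD, n = 3 each), a 1.29-fold difference (log2FC 0.37, SE 0.14, edgeR adjusted p = 0.0284). This small rise depended on the scaling, since with library size alone the log2 fold change was -0.04 (adjusted p = 0.815), and 4 of the 6 fits that left out 1 library lost an adjusted p under 0.05. It also depended on a near-identical copy. The processed pseudogene Gm5424 on chromosome 10, 99.5% identical to Ass1 over 1240 bases, had 43, 38 and 39 counts under PBS and 27, 28 and 33 under LPS, and with its counts added to Ass1 the log2 fold change was 0.26 (adjusted p = 0.0658). Asl, which releases arginine from argininosuccinate, had 1915, 1871 and 1721 counts under PBS and 1382, 1455 and 1364 under LPS. Its level was 39.6 ± 2.12 CPM in control and 41.9 ± 2.35 CPM in LPS libraries (SD, n = 3 each), and the groups overlapped. Its fold of 1.06 had a 95% interval of 0.988 to 1.13 (adjusted p = 0.165), but with library size alone the log2 fold change was -0.32 (adjusted p = 1.32e-05), so its direction was not settled.

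**Figure D2:**
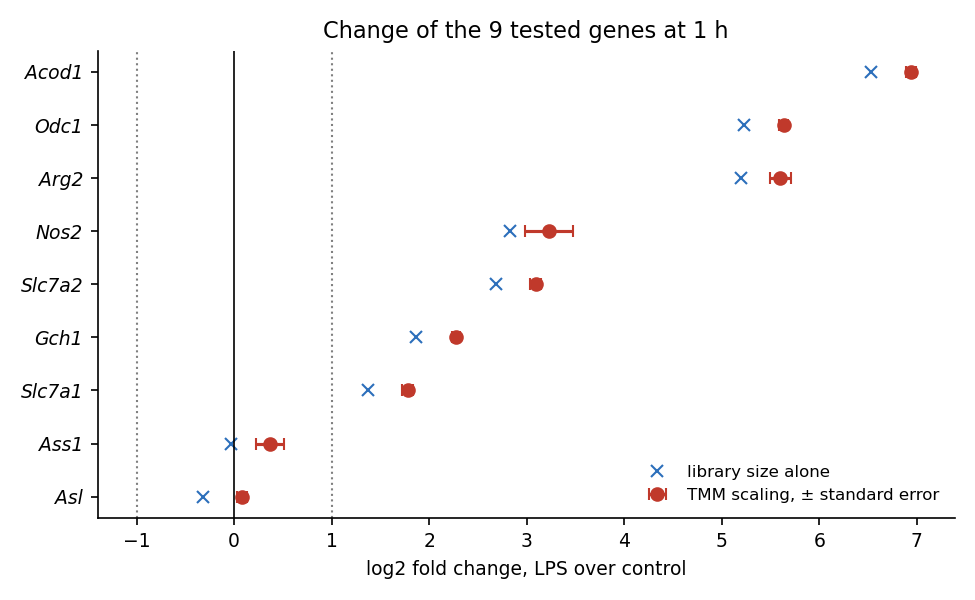
Log2 fold change of LPS over control for the 9 genes that entered the test, with TMM scaling (red, bars are standard errors over 3 against 3 libraries) and with library size alone (blue crosses). Dotted lines mark -1 and 1. Acod1, Odc1 and Arg2 lie above 5 and the crosses shift all genes alike, which carries Ass1 and Asl across 0.

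Levels were also divided by the length of all annotated exons of each gene, for a rough comparison between genes. The length of the transcripts actually expressed was not measured. Places of genes at near levels, such as Arg2 and Gch1 with LPS, may depend on it. In control libraries Asl was highest at 8.21 CPM per kb, followed by Acod1 at 6.24, Odc1 at 5.11 and Gch1 at 4.09. The transporters, Ass1 and Arg2 lay between 0.456 and 1.00 CPM per kb, and Arg1 and Nos2 were lowest at 0.0743 and 0.0504. The library ranges of Slc7a2 and Arg2 overlapped in control, as did those of Arg1 and Nos2, and no other neighbours in this order did. The place of Ass1 below Slc7a1 in control may also depend on the near-identical copy Gm5424, whose counts were not added here. With LPS, Acod1 stood first at 766 CPM per kb and Odc1 second at 254. Arg2 at 22.2 and Gch1 at 19.8 followed, and Asl, first in control, came next at 8.68. Slc7a2 at 4.87 then passed Slc7a1 at 3.45, and Ass1 at 0.942, Nos2 at 0.478 and Arg1 at 0.0497 closed the order. No neighbours overlapped in LPS libraries. Among the 15687 tested genes ranked by this measure, Acod1 moved from place 5409 in control to place 54 in LPS libraries, Odc1 from 6171 to 170 and Arg2 from 12772 to 2063. Nos2 moved from 15271 to 12509, so it was still among the less abundant transcripts at 1 h.

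**Figure D3:**
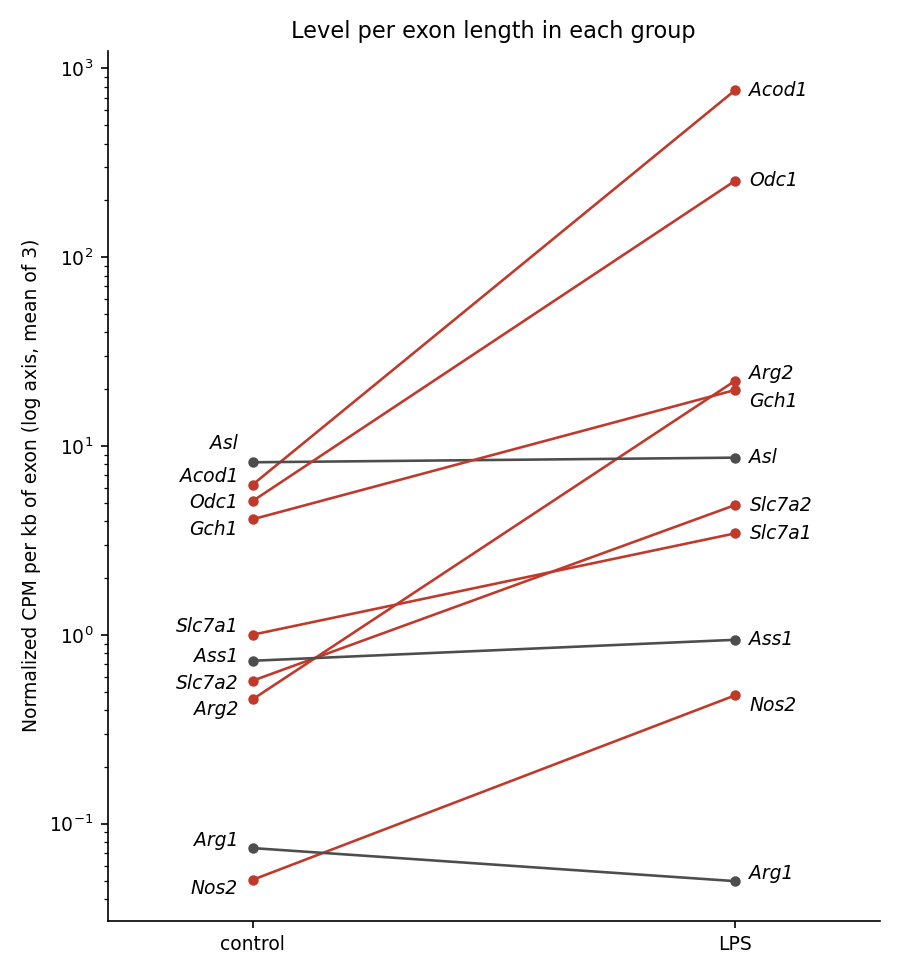
Mean normalized CPM per kb of exon (log axis, 3 libraries per group) in control and LPS libraries, 1 line per gene. Red lines are the 7 genes that rose past the criteria, and grey lines are Asl, Ass1 and Arg1. Arg2 climbs past Gch1 and Asl, and Slc7a2 passes Slc7a1.

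Ratios of 2 genes within the same library do not depend on the scaling between libraries. Over 6 such ratios, chosen by the roles of the genes, an exact two-sided permutation test cannot give a p below 0.1 with 3 libraries against 3. The log2 ratio of Slc7a1 to Slc7a2 counts was 1.26, 1.08 and 1.08 in control and -0.15, -0.19 and -0.14 in LPS libraries. The groups were separate, with a difference of -1.31 (exact permutation p = 0.1, adjusted p = 0.12). Nos2 and Arg2 encode enzymes that compete for arginine, and their log2 ratio averaged -1.50 in control and -3.91 in LPS libraries, also without overlap (exact permutation p = 0.1, adjusted p = 0.12). The ratio of Ass1 to Asl differed by 0.29, with means of -4.49 and -4.20 (exact permutation p = 0.1, adjusted p = 0.12). It leaves out the near-identical copy Gm5424, whose counts equalled 49.0% of those of Ass1 in control and 38.6% in LPS libraries. The separation of this ratio may depend on that copy, and the ratio with the copy added was not tested. The ratios of Arg1 to Arg2 and of Nos2 to Arg1 were separate too (both exact permutation p = 0.1, adjusted p = 0.12), but both rest on at most 12 counts of Arg1, and LPS replicate 3 with 0 counts gave the most extreme value of each. For Odc1 to Arg2, consecutive steps, the mean log2 ratio was 4.75 ± 0.42 in control and 4.77 ± 0.06 in LPS libraries (SD, n = 3 each), a difference of 0.03 (exact permutation p = 1). The differences between single LPS and control libraries ranged from -0.52 to 0.38. That spread is not an interval for the mean difference, and an equal change of both genes was not shown.

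**Figure D4:**
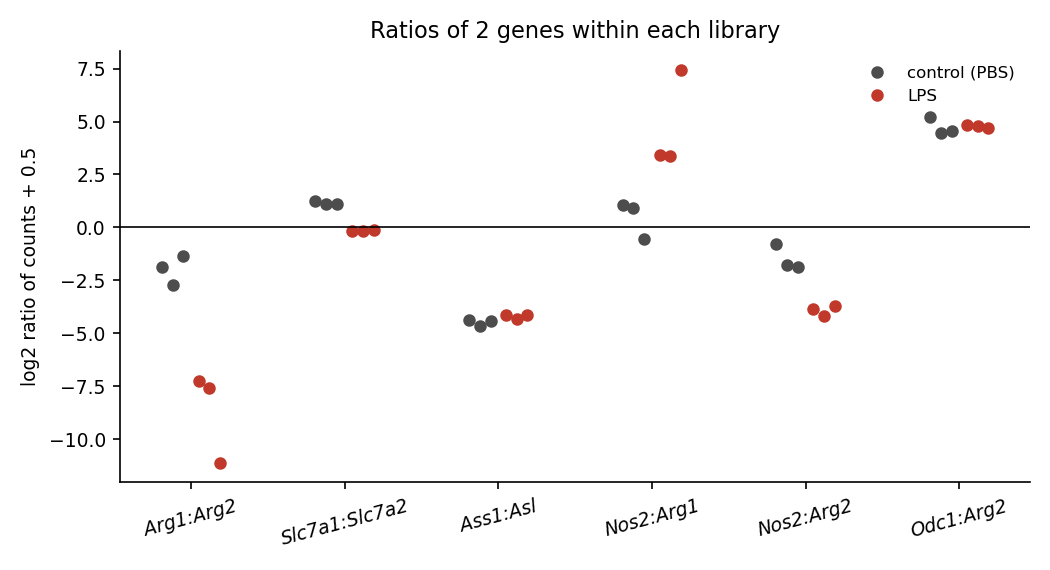
Log2 ratio of the counts of 2 genes in the same library, with 0.5 added to each count, in the 3 control libraries (grey) and 3 LPS libraries (red). The groups are separate for 5 ratios and overlap for Odc1 to Arg2, and the outlying LPS points of both Arg1 ratios come from the library with 0 counts of Arg1. The ratio of Ass1 to Asl leaves out the counts of the copy Gm5424.

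The genes around these routes were counted in 4 lists, to be read beside the 10.5% of all tested genes that rose, the 10.4% that fell and the 67.7% that passed on p alone. A list of 16 genes for nitric oxide signalling and tetrahydrobiopterin held 12 tested genes, of which 0 rose and 0 fell past the criteria, while 7 passed the threshold on p alone. Their median log2 fold change was -0.04. The other synthases were scarce. Nos1, the neuronal form, had at most 2 counts in any library, and Nos3, the endothelial form, had 13, 13 and 6 counts under PBS and 16, 14 and 9 under LPS (log2FC 0.75, SE 0.38, edgeR adjusted p = 0.0937). Pts and Spr, which encode the later enzymes of tetrahydrobiopterin synthesis, fell by less than 1 on the log2 scale, with a log2FC of -0.48 (adjusted p = 1.91e-06) and -0.19 (adjusted p = 0.0102). Gchfr, which encodes the feedback regulator of the Gch1 enzyme, had between 3 and 9 counts and was not tested.

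Of 18 genes for arginine supply and the urea cycle, 12 were tested, 2 rose past the criteria and 0 fell, with a median log2 fold change of 0.06. Slc7a3, with at most 13 counts in any library, counted as a fall under some other scalings and with 1 library left out. Slc3a2, the heavy chain shared by several amino acid exchangers, rose with means of 100.7 ± 5.51 CPM under PBS and 245 ± 4.22 CPM under LPS (± SD, n = 3 per group; log2FC 1.29, edgeR adjusted p = 2.32e-15). Castor1, a cytosolic arginine sensor upstream of mTORC1, rose with means of 2.68 ± 0.267 CPM under PBS and 5.98 ± 0.664 CPM under LPS (± SD, n = 3 per group; log2FC 1.16, edgeR adjusted p = 8.34e-08). With library size alone these values were 0.88 and 0.75, both under 1. The mitochondrial urea cycle enzymes were near absent, with 0 counts of Cps1 in all libraries and 1 count of Otc in a single library.

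All 18 genes of the polyamine list were tested, and 1 rose past the criteria, with a median log2 fold change of -0.03. Smox, spermine oxidase, had 1811, 1972 and 1857 counts under PBS and 5895, 5791 and 5534 under LPS (log2FC 2.08, SE 0.05, edgeR adjusted p = 3.58e-17). Azin1, an antizyme inhibitor that protects ornithine decarboxylase from degradation, had a log2 fold change of 0.91 (adjusted p = 1.33e-13). Oaz1, the antizyme that targets it for degradation, had one of 0.16 (adjusted p = 1.60e-04), which was -0.24 with library size alone. Sat1, which acetylates spermidine and spermine, fell with means of 364 ± 1.47 CPM under PBS and 229 ± 6.54 CPM under LPS (± SD, n = 3 per group; log2FC -0.67, edgeR adjusted p = 2.74e-12). With library size alone, Sat1 reached -1.07 and passed the criteria as a fall.

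All 24 genes of the itaconate and citrate cycle list were tested, and 1 rose past the criteria, with a median log2 fold change of 0.04. Among the enzymes of the citrate cycle, the log2FC reached from -0.15 for Fh1, fumarate hydratase, to 0.31 for Ogdh, a subunit of oxoglutarate dehydrogenase, which was at -0.09 with library size alone. The gene that passed was Sugct, a coenzyme A transferase, with 39, 33 and 52 counts under PBS and 104, 78 and 74 under LPS (log2FC 1.51, SE 0.19, edgeR adjusted p = 2.01e-06). Slc13a3, a sodium-coupled carrier of dicarboxylates including itaconate, had a log2 fold change of 0.65 (adjusted p = 7.65e-05), which was 0.25 with library size alone (adjusted p = 0.0565).

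**Figure D5:**
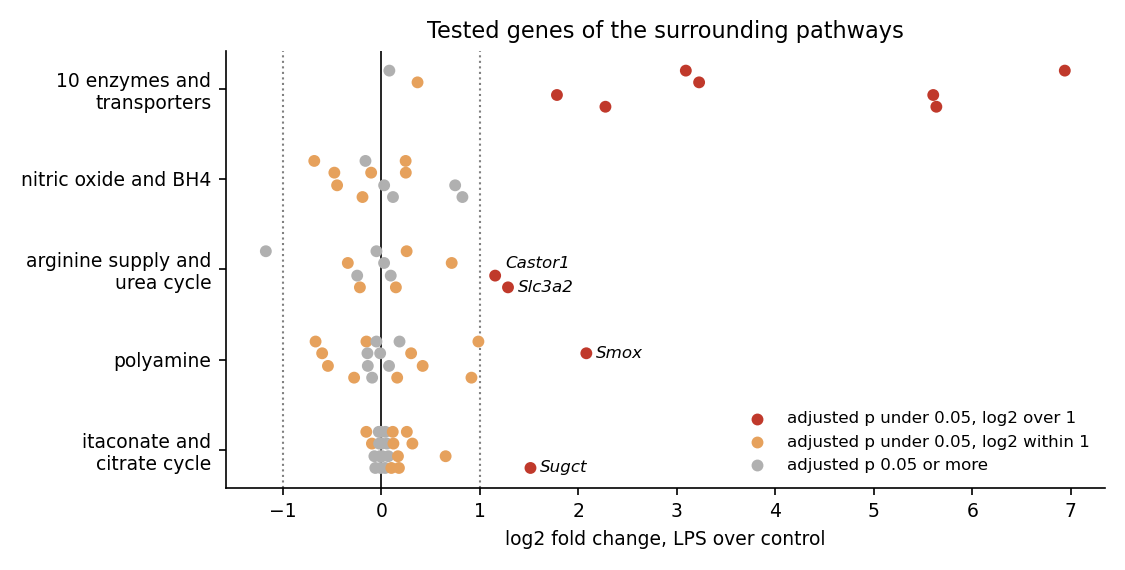
Log2 fold change of LPS over control for the tested genes among the 10 enzymes and transporters and in 4 lists of surrounding pathways, 1 point per gene, coloured by the result of the edgeR test. Dotted lines mark -1 and 1. Only Castor1, Slc3a2, Smox and Sugct pass both criteria outside the 10 genes under TMM scaling, and the 7 genes that rose in the top row reach up to 6.94.

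Of 3 annotated features inside the introns of Odc1 and Gch1, 2 rose, and Gm49134 in Gch1 had at most 3 counts in any library. The snoRNA gene Gm22748, on chromosome 12 from 17546146 to 17546281 within an intron of Odc1 on the same strand, had 10, 6 and 8 counts under PBS and 167, 185 and 182 under LPS. It rose 30.3-fold (log2FC 4.92, SE 0.19, edgeR adjusted p = 8.07e-14). The processed pseudogene Gm18811, on chromosome 14 from 47177883 to 47178546 within an intron of Gch1 on the same strand, had 19, 17 and 12 counts under PBS and 107, 84 and 114 under LPS, an 8.73-fold rise (log2FC 3.13, SE 0.21, edgeR adjusted p = 2.33e-10). Neither shares an exonic base with its host. Relative to the host gene in each library, the log2 ratio of Gm22748 changed by -0.75 and that of Gm18811 by 0.84 (exact permutation p = 0.1 for each, the smallest possible). The features were chosen after their values were seen, and whether their reads are unspliced host RNA was not tested.

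The positions of the other genes are given here in GRCm38 with their Ensembl identifiers. Odc1 (ENSMUSG00000011179.8) lies at chr12:17544794-17551505 on the plus strand, and Arg2 (ENSMUSG00000021125.6) is on the same chromosome. Arg1 (ENSMUSG00000019987.9) lies at chr10:24915221-24927484 on the minus strand. Nos2 (ENSMUSG00000020826.9) lies at chr11:78920787-78960254 on the plus strand, and Gch1 (ENSMUSG00000037580.10) at chr14:47153895-47189413 on the minus strand. Slc7a1 (ENSMUSG00000041313.14) lies at chr5:148327410-148399904 on the minus strand, and Slc7a2 (ENSMUSG00000031596.15) at chr8:40862396-40922308 on the plus strand. Ass1 (ENSMUSG00000076441.9) lies at chr2:31470207-31520672 on the plus strand, and Asl (ENSMUSG00000025533.15) at chr5:130011258-130029247 on the minus strand. Of the genes that rose most, Odc1 spans 6.71 kb, Acod1 9.60 kb and Arg2 25.5 kb, and the transporters, which rose less, span 72.5 kb for Slc7a1 and 59.9 kb for Slc7a2. Across the 9 tested genes, Spearman's rho of genomic span and log2 fold change was -0.52, a description over genes of the same libraries. Asl, among the shorter genes at 18.0 kb, had a log2FC of 0.08. Gch1 spans 35.5 kb and rose less than the longer Slc7a2, with a log2FC of 2.27 against 3.09. Nos2 spans 39.5 kb and Ass1 50.5 kb, with a log2FC of 3.23 and 0.37. Whether span has a part in the response was not tested.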

How the data were processed

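RNA-seq of 6 libraries from BMDMs given PBS or LPS for 1 h was analysed. The authors aligned paired-end reads to GRCm38 with HISAT2 2.1.0 and deposited counts per gene, made with featureCounts 2.0.0, without normalization. The annotation release, strand setting and treatment of reads with several matches are not given in the sources used here. Names and positions came from GENCODE M21, which gave a symbol to 55154 of 55335 identifiers. Differences between LPS and control were tested in R 4.3.3 with edgeR 4.0.16 (filterByExpr, TMM, quasi-likelihood test), with Benjamini-Hochberg adjustment across the 15687 genes kept. A gene counted as changed below 0.05 and beyond 1 or -1 in log2. Standard errors came from the F statistic, and 95% intervals of folds from these.

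Copies of the genes were sought among GENCODE transcripts with blastn 2.17.0. The genes, lists and tests were chosen with earlier results of these data known. From the lists, up to 5 called genes with the largest change and a fixed set were named, some of which are not reported here. Atp13a3, Gucy1a1, Nosip, Slc7a3, Paox, Fh1, Ogdh, AW146154, the pseudogenes, overlapping genes and intronic features were named after their values were seen. Same-numbered libraries share a batch number in the labels. Their deviations from the group means correlated between -0.0139 and 0.0822 across genes, against -0.0817 to 0.0446 for control and LPS libraries of different numbers. The replicate number was a block in an alternative fit. No 2 replicates agreed within sampling noise, by a chi-square averaged over genes (at least 5.41 per gene). The common coefficient of variation beyond sampling noise, from edgeR, was 0.0426. Alternatives were other scalings and filters, DESeq2 1.42.0, limma voom 3.58.1, the block, leaving out the 10 highest genes and leaving out each library.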

Additional observations from a re-analysis of the deposited data

How the results depend on the processing

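The 7 rises of Acod1, Odc1, Arg2, Nos2, Slc7a2, Gch1 and Slc7a1 kept their direction and an adjusted p under 0.05 in every fit that tested them, and 7 genes were counted in all but one. A filter of 10 counts in every library left 6, since Nos2 did not pass it, and reduced the number of all genes past the criteria from 3277 to 2168. Library size alone gave the lowest log2 fold change for each of the 9 tested genes, for example 6.53 for Acod1 and 1.38 for Slc7a1, and turned Ass1 to -0.037 and Asl to -0.32. Upper quartile scaling turned Asl to -0.062 and gave 0.22 for Ass1, which missed the threshold, as it did without a filter (0.34) and with DESeq2's test (0.39). Leaving out 1 library moved Ass1 between 0.31 and 0.43, with the adjusted p at 0.05 or more without control replicate 2, control replicate 3, LPS replicate 1 or LPS replicate 3. With the copy Gm5424 added to Ass1, an alternative chosen after seeing the data, it was 0.26.

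Paired by replicate block, the log2 fold change was 6.94 for Acod1 and 0.37 for Ass1, 3276 genes passed the criteria, and the block changed no call among the 10 genes. Of all genes past the criteria, 1653 rose and 1624 fell with TMM, 1213 and 2964 with library size alone, and 2117 and 2076 with no filter.

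In the pathway lists, library size alone counted 1 gene for nitric oxide and tetrahydrobiopterin (Nosip, a fall), 1 for arginine supply (Slc7a3, a fall) and 3 for polyamines (Smox, and falls of Sat1 and Paox). DESeq2's size factors and DESeq2's test counted 2 polyamine genes each, adding Atp13a3. Slc7a3 was also counted as a fall with upper quartile scaling, with limma voom and without LPS replicate 3, each giving 3 arginine supply genes. Leaving out 1 library gave 0 to 1 genes of the nitric oxide list, with Gucy1a1 added without control replicate 1, and 1 to 2 polyamine genes, with Atp13a3 added without LPS replicate 2. The difference in the log2 ratio of Odc1 to Arg2 lay between -0.12 and 0.27 when 1 library was left out, turning to -0.12, -0.06 and -0.003 without control replicate 2, control replicate 3 and LPS replicate 1. Depth limits Arg1, Nos2 and Gchfr. The causes of these shifts were not tested.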
